A study of Homo sapiens with 12 samples.

Results

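The 37 genes of human mitochondrial DNA (mtDNA) were followed through 12 RNA-seq libraries of THP-1 cells, a line established from a human monocytic leukemia. They are all entries whose Ensembl ID maps to a symbol starting with MT-, 37 of the 62914 entries in the tables, and comprise 13 mRNAs, 2 rRNAs and 22 tRNAs. The libraries form 4 groups of 3: cells exposed for 8 h to 3'-3'-cGAMP at 1 μg/mL, a cyclic dinucleotide that activates the adaptor STING; untreated cells, which are the 0 μM chlorquinaldol dose; and cells exposed for 8 h to 20 μM or 50 μM chlorquinaldol, a chlorinated hydroxyquinoline antiseptic of a class that binds metal ions. No vehicle and no time are given for the untreated cells, and the 3 comparisons with them share the same untreated libraries. Nothing says that the replicates came from separate cultures, so p-values measure only the spread between these samples. Between 17620929 and 19222607 counts were assigned to genes in a library. All 8 monocytic markers were tested, with summed levels, in CPM (counts scaled to library size), of 1462 to 1557 with cGAMP, and, by dose, 1414 to 1426 in untreated cells, 1150 to 1290 (20 μM) and 1112 to 1254 (50 μM). The T and NK cell markers summed to 10 to 11.3 CPM with cGAMP, 9.04 to 10.7 in untreated cells, 10.7 to 12.5 at 20 μM and 11.8 to 14.6 at 50 μM, and the defining CD3D, CD3E and GNLY were below 1 CPM. The B cell markers summed to 2.11 to 2.38 CPM with cGAMP, 2.64 to 2.94 in untreated cells, 5.49 to 7.40 at 20 μM and 4.16 to 4.44 at 50 μM, with MS4A1 and CD79A below 1 CPM. Markers of fibroblasts, epithelium and red cells each summed to at most 0.951 CPM in any library.

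Mitochondrial DNA is a small circle that is transcribed from both strands into long precursors. The tRNAs sit between the other genes, and cutting them out releases most mRNAs and rRNAs, which are then adenylated. The mRNAs encode subunits of the oxidative phosphorylation (OXPHOS) complexes I, III, IV and V, and all of complex II is encoded in the nucleus. Heavy-strand transcription gives both rRNAs, 12 mRNAs and 14 tRNAs, and light-strand transcription gives MT-ND6 and 8 tRNAs. All values are of RNA caught by oligo(dT) beads. In a bulk sample fewer mitochondria, fewer mtDNA copies and less RNA per copy cannot be told apart.

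Gene boundaries matter to the counts, so those the results turn on are printed here from GENCODE 29 on GRCh38, plus strand, 5′ to 3′. MT-ATP8 and MT-ATP6 lie on 1 mRNA and overlap by 46 bases (chrM:8527-8572), where the capitals mark the MT-ATP6 start codon and the last 3 bases of MT-ATP8. MT-ND4L and MT-ND4 also share an mRNA. Their 7 shared bases are in capitals at the end of MT-ND4L (chrM:10737-10766). MT-RNR2 ends (chrM:3200-3229) 77 bases before MT-ND1 begins (chrM:3307-3336), with 1 tRNA gene between, and this is where the direction of change turned with chlorquinaldol. The starts of MT-CO2 (chrM:7586-7615) and MT-CO3 (chrM:9207-9236), with the start codon in capitals as for MT-ND1, belong to the heavy-strand mRNAs with the largest and the smallest fall. No base separates MT-CO2 from the tRNA gene before it. MT-CO3 has no tRNA gene before it and overlaps MT-ATP6 by 1 base.
MT-ATP8 and MT-ATP6 overlap: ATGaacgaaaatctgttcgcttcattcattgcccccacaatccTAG
MT-ND4L end: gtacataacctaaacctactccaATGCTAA
MT-RNR2 end: tatacccacacccacccaagaacagggttt
MT-ND1 start: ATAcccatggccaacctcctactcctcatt
MT-CO2 start: ATGgcacatgcagcgcaagtaggtctacaa
MT-CO3 start: ATGacccaccaatcacatgcctatcatata

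All 13 mRNAs and both rRNAs passed the filter on low counts, and none of the 22 tRNAs did, so 15 of 37 members were tested. Levels between genes are compared only per length, in FPKM, which divides fragment counts by gene length and library size. MT-ATP8, a small ATP synthase subunit, stood highest in untreated cells at 26473 ± 4083 FPKM (SD, n = 3). MT-ND4L, MT-CO3, MT-CO1, MT-CO2, MT-ND3, MT-RNR2 and MT-ATP6 followed at 10525 to 7362 FPKM, and each overlapped the next over the libraries. MT-ND4, MT-ND1 and MT-ND2 had 5022, 4075 and 3621 FPKM. The lowest mRNAs were MT-ND6, MT-CYB and MT-ND5, at 2362, 2272 and 2077 FPKM, which overlapped. MT-RNR1, the 12S rRNA, was lowest of the 15 at 1124 ± 79.9 FPKM. Short genes such as MT-ATP8 and MT-ND4L depend most on the effective length used for FPKM. How well the oligo(dT) beads caught each RNA also enters FPKM. The rank of the rRNAs among the mRNAs may therefore differ from that in the cells. With cGAMP, MT-ATP8 was again first at 19315 FPKM and MT-RNR1 last at 1075 FPKM. The order differed at 50 μM, where MT-RNR2, the 16S rRNA, led at 11990 ± 1463 FPKM and lay above every library of the next gene, MT-ATP8 at 3017 ± 1056 FPKM, and MT-ND6 was last at 89.1 ± 58.4 FPKM.

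Chlorquinaldol at 50 μM split the mtDNA transcripts by class. All 13 mRNAs fell, with a median log2 change of −2.86 (7.26-fold) and a range from −4.56 to −1.71, and both rRNAs rose. No library at 50 μM overlapped the untreated ones for any of the 15 genes. By the test used (edgeR quasi-likelihood, Benjamini-Hochberg adjusted p below 0.05 over 16628 genes), 34.7% of all tested genes were called lower and 32.2% higher, and the median log2 change over all of them was −0.034. Libraries that lay apart in this way were found for 36.8% (lower) and 33.8% (higher) of all tested genes. The 15 calls stayed below the threshold in every alternative fit, where the highest adjusted p was 0.00949, for MT-RNR2.

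**Figure D1:**
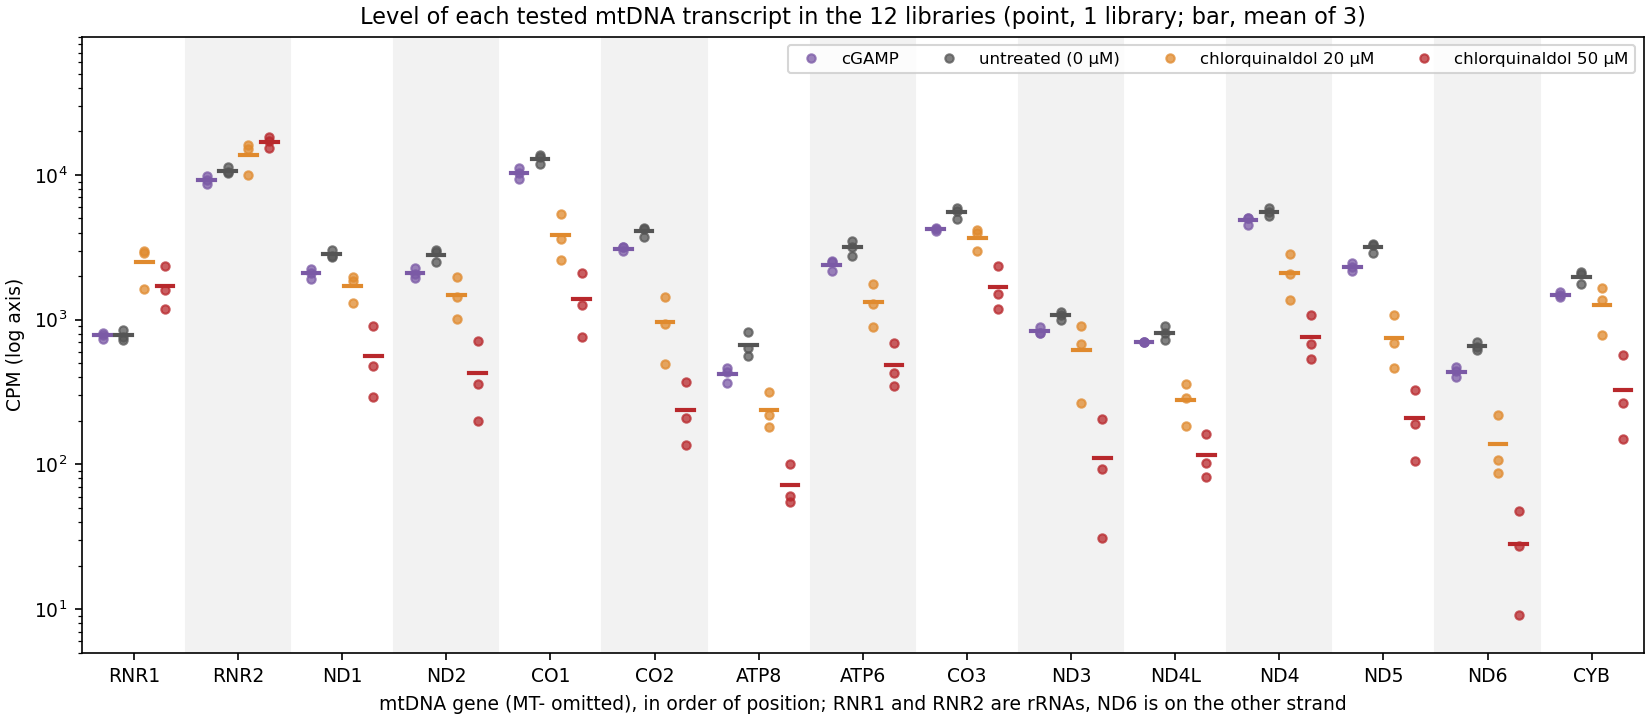
CPM on a log axis for the 15 tested mtDNA transcripts in map order, with 1 point per library and a bar at each group mean (n = 3). The 13 mRNAs step down from untreated cells to 20 μM to 50 μM, while MT-RNR1 and MT-RNR2 lie above the untreated libraries at 50 μM.

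Complex I is the entry point of electrons from NADH, and mtDNA encodes 7 of its subunits, all of which fell at 50 μM. MT-ND6 (chromosome M, 14149 to 14673, minus strand), a membrane subunit and the only light-strand mRNA, had 621, 706 and 650 CPM in untreated cells, 86.8, 108 and 219 CPM at 20 μM, and 47.4, 27.5 and 9.14 CPM at 50 μM. The 3 doses did not overlap. MT-ND6 had the largest fall of the 13 mRNAs at 50 μM, 23.6-fold (log2 −4.56 ± 0.41 SE, adjusted p = 2.88e-08). MT-ND5 (12337 to 14148, plus strand), a proton-pumping membrane subunit, had 3321, 3282 and 2888 CPM in untreated cells, 466, 694 and 1085 CPM at 20 μM, and 329, 189 and 106 CPM at 50 μM. It was 15.2-fold lower at 50 μM (log2 −3.93 ± 0.33, adjusted p = 1.11e-08). MT-ND3 had 1084, 1137 and 991 CPM in untreated cells, 266, 676 and 907 CPM at 20 μM, and 207, 93.1 and 31.3 CPM at 50 μM. Its 50 μM libraries spanned the widest range of any mRNA in relative terms (SD 80.6% of the mean), and the fall carried a larger error (log2 −3.28 ± 0.47, adjusted p = 8.98e-06).

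The other 4 complex I members had log2 changes between −2.86 and −2.34 at 50 μM. MT-ND1 (3307 to 4262), which helps form the quinone-binding site, had 2737, 3052 and 2715 CPM in untreated cells, 1298, 1843 and 1982 CPM at 20 μM, and 901, 482 and 292 CPM at 50 μM. MT-ND2 (4470 to 5511), a proton-pumping subunit, had 2947, 3009 and 2496 CPM in untreated cells, 1018, 1431 and 1973 CPM at 20 μM, and 717, 359 and 200 CPM at 50 μM. The 3 doses of both genes were separate, and the log2 changes at 50 μM were −2.34 ± 0.27 for MT-ND1 and −2.73 ± 0.32 for MT-ND2 (adjusted p = 6.24e-07 and 7.88e-07 by edgeR's quasi-likelihood test). MT-ND4 (10760 to 12137), another proton-pumping subunit, had 5515, 5876 and 5237 CPM in untreated cells, 1376, 2079 and 2839 CPM at 20 μM, and 1077, 678 and 535 CPM at 50 μM. MT-ND4L (10470 to 10766), the small membrane subunit on the same mRNA, had 908, 808 and 721 CPM in untreated cells, 185, 289 and 362 CPM at 20 μM, and 163, 102 and 81.5 CPM at 50 μM. The log2 changes of these mRNA partners at 50 μM were −2.86 ± 0.24 (MT-ND4) and −2.82 ± 0.23 (MT-ND4L).

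Complex IV, cytochrome c oxidase, has its catalytic core in MT-CO1, MT-CO2 and MT-CO3, and these diverged. MT-CO2 (7586 to 8269), which holds the copper site that takes electrons from cytochrome c, had 4284, 4248 and 3709 CPM in untreated cells, 491, 933 and 1445 CPM at 20 μM, and 372, 208 and 136 CPM at 50 μM. At 50 μM it was at 5.85% of the untreated mean (log2 −4.10 ± 0.35, adjusted p = 1.25e-08). MT-CO1 (5904 to 7445), the heme- and copper-bearing catalytic subunit and the most counted mRNA of untreated cells, had 13669, 13193 and 11902 CPM in untreated cells, 2604, 3623 and 5332 CPM at 20 μM, and 2116, 1273 and 761 CPM at 50 μM. It stood at 10.7% of the untreated mean at 50 μM (log2 −3.22 ± 0.29, adjusted p = 2.57e-08). MT-CO3 (9207 to 9990) had 5644, 5948 and 4947 CPM in untreated cells, 2962, 4151 and 3960 CPM at 20 μM, and 2366, 1514 and 1187 CPM at 50 μM. It kept 30.6% of the untreated mean at 50 μM, the highest share of the 13 mRNAs (log2 −1.71 ± 0.18, adjusted p = 2.82e-07).

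The 2 ATP synthase (complex V) subunits share an mRNA. MT-ATP6 (8527 to 9207), part of the proton channel, had 3194, 3521 and 2760 CPM in untreated cells, 895, 1291 and 1758 CPM at 20 μM, and 690, 426 and 349 CPM at 50 μM. MT-ATP8 (8366 to 8572) had 640, 816 and 558 CPM in untreated cells, 181, 218 and 315 CPM at 20 μM, and 101, 60.5 and 55.3 CPM at 50 μM. Both were lower in every chlorquinaldol library than in untreated cells, with log2 changes of −2.69 ± 0.23 and −3.22 ± 0.23 at 50 μM (adjusted p = 1.59e-08 and 1.30e-09 by edgeR's quasi-likelihood test). MT-CYB (14747 to 15887), the heme-bearing subunit of complex III and the heavy-strand mRNA farthest from the start of transcription, had 2121, 2072 and 1761 CPM in untreated cells, 785, 1363 and 1643 CPM at 20 μM, and 567, 267 and 150 CPM at 50 μM. Its fall at 50 μM was 6.05-fold (log2 −2.60 ± 0.34, adjusted p = 2.46e-06).

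The rRNAs of the mitochondrial ribosome moved the other way. MT-RNR2 (1671 to 3229) had 10341, 10417 and 11343 CPM in untreated cells, 16047, 15038 and 10032 CPM at 20 μM, and 15293, 17100 and 18318 CPM at 50 μM. It rose 1.58-fold at 50 μM (log2 0.66 ± 0.13, adjusted p = 2.99e-04). MT-RNR1 (648 to 1601) had 721, 765 and 855 CPM in untreated cells, 2880, 2972 and 1621 CPM at 20 μM, and 2331, 1593 and 1189 CPM at 50 μM. It rose 2.18-fold at 50 μM (log2 1.13 ± 0.21, adjusted p = 1.33e-04) and 3.19-fold at 20 μM (log2 1.67 ± 0.21, adjusted p = 3.89e-06).

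Summed over the class, the mRNAs took 4.91%, 4.91% and 4.20% of all gene counts in untreated cells, 1.30%, 1.86% and 2.52% at 20 μM, and 0.870%, 0.539% and 0.374% at 50 μM. The rRNAs took 1.15% to 1.24% in untreated cells, 1.23% to 1.95% at 20 μM and 1.59% to 1.87% at 50 μM. As a share of mtDNA counts, the rRNAs made up 19.2%, 19% and 22.8% in untreated cells, 60.0%, 49.1% and 32.8% at 20 μM, and 64.6%, 76.7% and 83.4% at 50 μM. The mtDNA genes together held 2.34% ± 0.108 of counts at 50 μM and 5.86% ± 0.366 in untreated cells (SD, n = 3 each). None of these shares overlapped between the 50 μM and the untreated libraries. An exact two-sided permutation test gave p = 0.1 for the mtDNA share, the mRNA share and the rRNA share of mtDNA counts at 50 μM and at 20 μM, the smallest that 3 against 3 libraries allow.

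**Figure D2:**
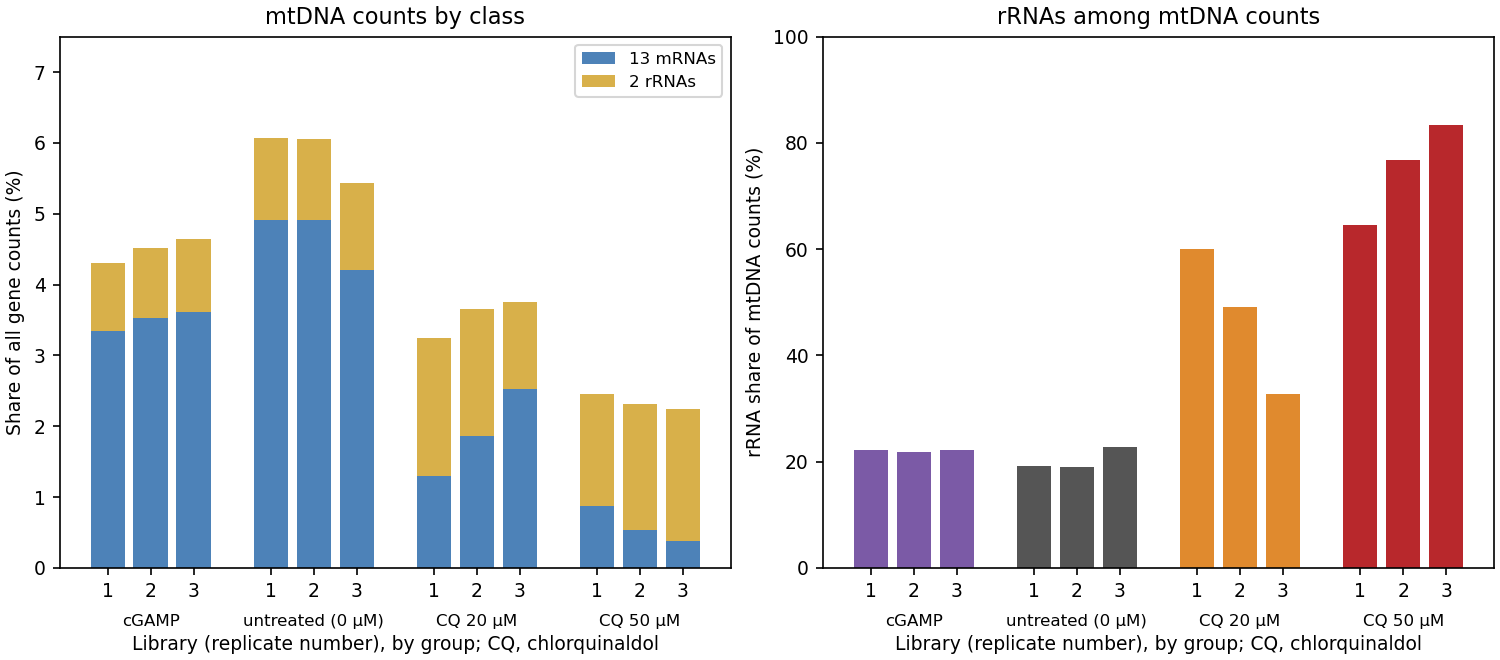
Left, the share of all gene counts (%) taken by the 13 mRNAs and the 2 rRNAs in each library. Right, the rRNA share of mtDNA counts (%), which lies between 19% and 22.8% in the untreated and cGAMP libraries, 32.8% and 60.0% at 20 μM, and 64.6% and 83.4% at 50 μM.

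At 20 μM, 11 of 13 mRNAs fell and both rRNAs were called higher, against 28% of all tested genes called lower and 27.1% called higher. The median log2 change of the 13 mRNAs was −1.40, with a range from −2.26 (MT-ND6) to −0.58 (MT-CO3), and no 20 μM library of any mRNA overlapped the untreated ones, which held for 31.5% of all tested genes in this direction. MT-CO2 and MT-ND5 came after MT-ND6, at −2.09 ± 0.32 and −2.08 ± 0.30, followed by MT-CO1 at −1.75 ± 0.27. MT-ND4L, MT-ND4 and MT-ATP6 had log2 changes of −1.54, −1.40 and −1.26, and MT-ND2 and MT-ND1 had −0.93 and −0.73. MT-ND3 (log2 −0.80 ± 0.43, adjusted p = 0.131) and MT-CYB (log2 −0.65 ± 0.32, adjusted p = 0.0922) did not pass the test. Both passed with only the groups compared (adjusted p = 0.0327 and 0.0129), with no filter (2.11e-14 and 1.75e-09) and without the third 50 μM library (0.0426 and 0.0327), and MT-CYB also without the first 50 μM library (0.0195). MT-ND1 and MT-ND2 lost their calls with DESeq2 (adjusted p = 0.0861 and 0.0581) and without the second 20 μM library (0.0573 and 0.0607), and MT-ND1 also without the second untreated library (0.0695). MT-RNR2 was called at 20 μM (log2 0.36 ± 0.13, adjusted p = 0.0305), but the third library at this dose, with 10032 CPM, lay below all untreated ones. The call was lost with limma on FPKM (adjusted p = 0.0905 and 0.0968), without the first or the second untreated library (0.0841 and 0.0861) and without the second 20 μM library (0.0684), and without the third 20 μM library the change was 0.59. Without the first 20 μM library, the 13 calls dropped to 9, since MT-RNR2, MT-ND1, MT-ND2 and MT-CO3 had adjusted p-values of 0.104, 0.143, 0.0968 and 0.103.

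Between the doses, all 13 mRNAs were lower at 50 μM than at 20 μM, without overlap of libraries, with a median log2 change of −1.72 and a range from −2.48 (MT-ND3) to −1.13 (MT-CO3). Over all tested genes, 19% were called lower and 19.1% higher in this comparison, and 22.8% had 50 μM libraries below all 20 μM ones. The rRNAs differed from each other in direction. MT-RNR1 was 1.46-fold lower at 50 μM than at 20 μM (log2 −0.55 ± 0.21, adjusted p = 0.0458), with overlapping libraries, and the call was lost without any single untreated or cGAMP library and without the second or the third 50 μM or the first or the second 20 μM library (adjusted p up to 0.233). It was also lost with DESeq2 (0.136), RLE factors (0.0585), nuclear-only library sizes (0.0567) and only the groups compared (adjusted p = 0.0947). MT-RNR2 was 16904 ± 1522 CPM at 50 μM and 13706 ± 3221 CPM at 20 μM (SD, n = 3 each), and the difference did not pass the test (log2 0.30 ± 0.13, adjusted p = 0.0824). It passed without the first 50 μM library or without the first or second 20 μM library (adjusted p = 0.0404, 0.0181 and 0.0479), with DESeq2 (0.0289) and with no filter (0.00779). The ratio of MT-RNR2 to MT-RNR1 counts was 14.3, 13.6 and 13.3 in untreated cells, 5.57, 5.06 and 6.19 at 20 μM, and 6.56, 10.7 and 15.4 at 50 μM.

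Among the heavy-strand mRNAs, the changes showed little relation to the distance from the start of heavy-strand transcription. Across the 12 heavy-strand mRNAs, the log2 change at 50 μM and the distance of the gene from MT-TF, the first gene of that transcript, had a Pearson r of −0.13 and a Spearman rho of −0.09 (n = 12 genes of the same libraries, given as a description). At 20 μM these were −0.05 and 0.03. The 2 rRNAs, left out here, are the tested heavy-strand genes nearest to the start of MT-TF, at 71 (MT-RNR1) and 1094 bases (MT-RNR2). They were also the only ones that rose, so for that rise class and nearness to the start cannot be told apart. For gene length r was −0.15 at 50 μM and −0.24 at 20 μM, and for the log2 FPKM level in untreated cells −0.01 and −0.14. Along the map at 50 μM the log2 changes were −2.34, −2.73, −3.22 and −4.10 from MT-ND1 over MT-ND2 and MT-CO1 to MT-CO2. They were −3.22, −2.69 and −1.71 for MT-ATP8, MT-ATP6 and MT-CO3. From MT-ND3 on they were −3.28, −2.82 (MT-ND4L), −2.86 (MT-ND4) and −3.93 (MT-ND5), and −2.60 for MT-CYB, the last.

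**Figure D3:**
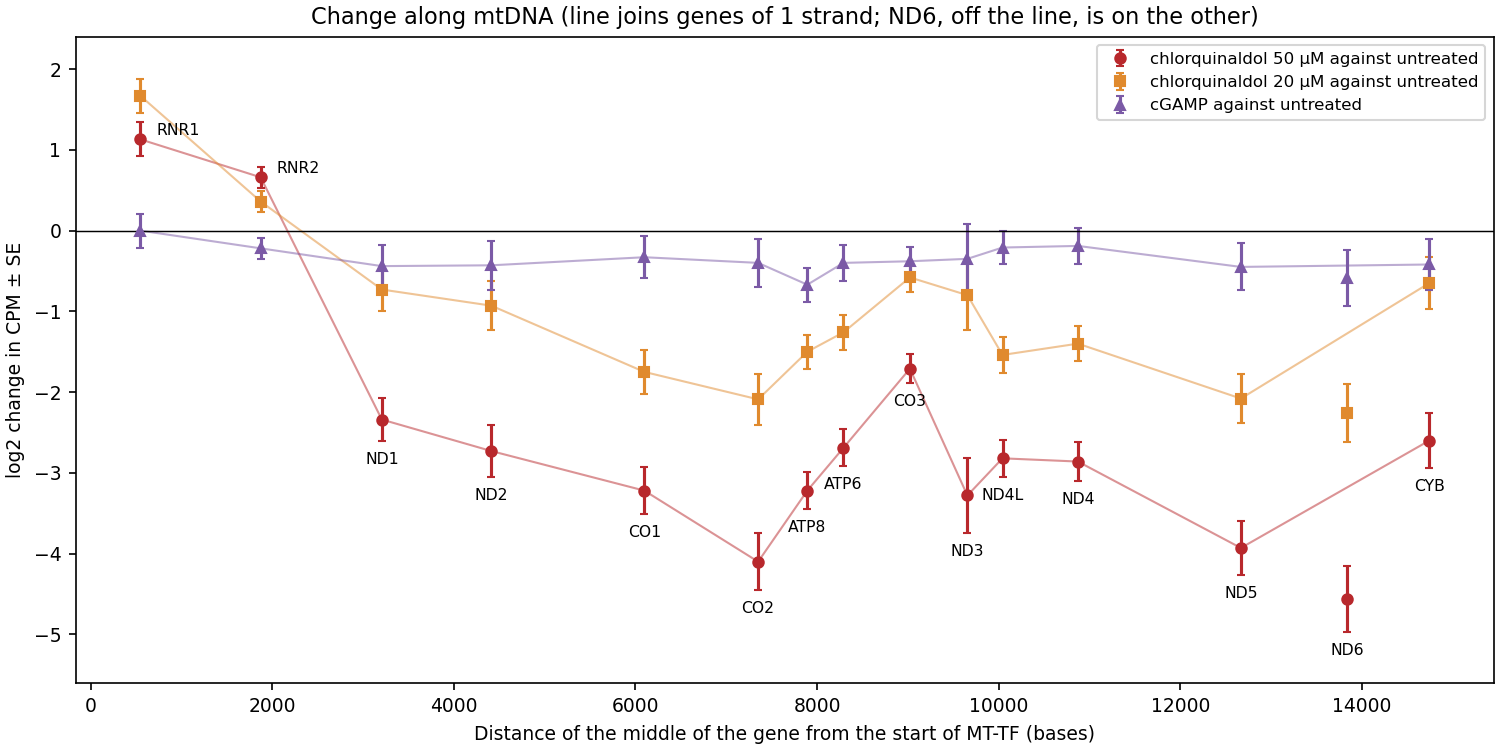
log2 change in CPM ± SE against the distance of each gene's middle from the start of MT-TF (bases), for 50 μM, 20 μM and cGAMP, each against untreated cells. Both chlorquinaldol profiles cross 0 between MT-RNR2 and MT-ND1 and have a dip at MT-CO2 and a peak at MT-CO3, and the cGAMP profile stays between −0.67 and 0.00.

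The step between MT-RNR2 and MT-ND1, from higher to lower than in untreated cells, was the largest between neighbours on the heavy-strand map at 50 μM (log2 0.66 and −2.34). At 20 μM (0.36 and −0.73) it was smaller than those between MT-RNR1 and MT-RNR2 (1.67 and 0.36) and between MT-ND5 and MT-CYB (−2.08 and −0.65). The ratio of MT-RNR2 to MT-ND1 counts was 3.78, 3.41 and 4.18 in untreated cells, 12.4, 8.16 and 5.06 at 20 μM, and 17, 35.5 and 62.8 at 50 μM. The 2 genes are the neighbours across the boundary printed above. The ratio of MT-CO3 to MT-CO2 counts was 1.32, 1.40 and 1.33 in untreated cells, 6.03, 4.45 and 2.74 at 20 μM, and 6.35, 7.29 and 8.70 at 50 μM. In every chlorquinaldol library it exceeded the untreated ones. MT-CO3 thus made up 24.5% to 30.5% of mt-mRNA counts at 50 μM and 12% to 12.5% in untreated cells, and MT-CO2 made up 3.50% to 3.86% at 50 μM and 8.91% to 9.18% in untreated cells. These pairs were picked after their values were seen and are given without a test.

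Ratios were also read for genes on a shared mRNA. The pairs above were picked after their values were seen, so a comparison with them cannot show an effect of sharing an mRNA. Some genes on separate mRNAs had equal changes, such as MT-CO1 and MT-ATP8, each with a log2 change of −3.22 at 50 μM. The ratio of MT-ND4L to MT-ND4 counts was 0.165, 0.138 and 0.138 in untreated cells, 0.135, 0.139 and 0.128 at 20 μM, and 0.151, 0.150 and 0.152 at 50 μM. Its groups overlapped between 50 μM and untreated cells. The ratio of MT-ATP8 to MT-ATP6 counts was 0.200, 0.232 and 0.202 in untreated cells, 0.202, 0.169 and 0.179 at 20 μM, and 0.146, 0.142 and 0.159 at 50 μM, lower in all 3 libraries at 50 μM than in untreated cells. In FPKM it was 3.56, 3.71 and 3.50 in untreated cells and 3.03, 2.80 and 3.04 at 50 μM. How reads in the 46 shared bases were divided is not given in the sources used here.

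**Figure D4:**
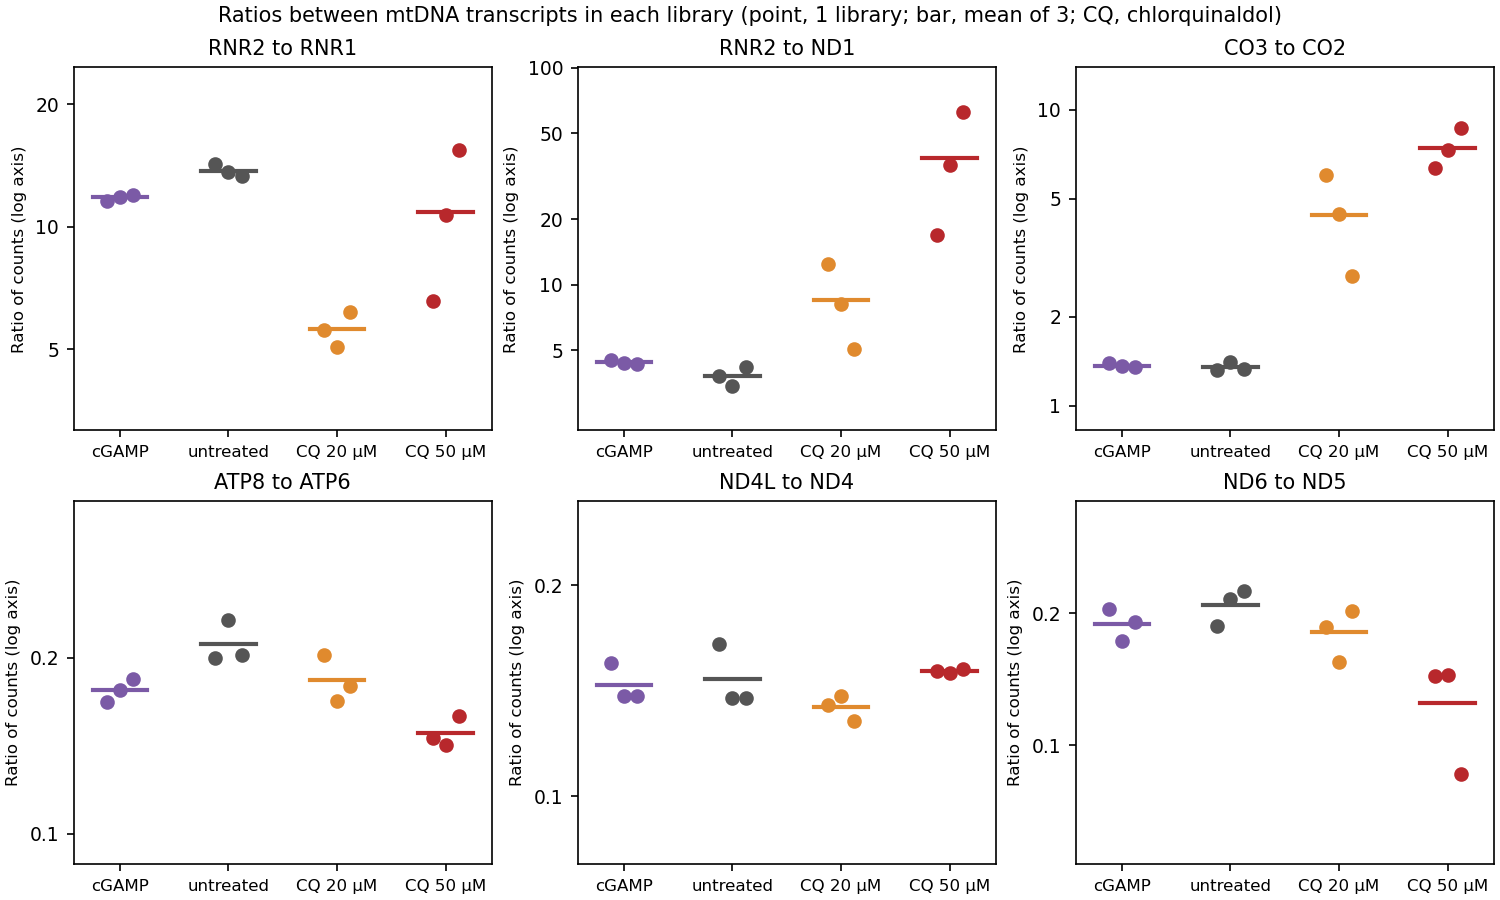
Ratios of counts between pairs of mtDNA transcripts on log axes, with 1 point per library and a bar at each group mean (n = 3). RNR2 to ND1 and CO3 to CO2 lie above the untreated libraries in all 6 chlorquinaldol libraries, while ND4L to ND4 stays between 0.128 and 0.165 in all 12.

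The strands were compared through MT-ND6, the only mRNA of light-strand transcription. It made up 1.33%, 1.48% and 1.57% of mt-mRNA counts in untreated cells, 0.688%, 0.576% and 0.918% at 20 μM, and 0.491%, 0.485% and 0.235% at 50 μM. The groups did not overlap (exact permutation p = 0.1 for each pair, the smallest that 3 against 3 allow). Against its neighbour MT-ND5, whose gene ends where MT-ND6 ends on the other strand, the FPKM ratio was 1.02, 1.17 and 1.23 in untreated cells, 1.02, 0.850 and 1.11 at 20 μM, and 0.782, 0.787 and 0.468 at 50 μM. In human cells the MT-ND6 mRNA is known to lack a long poly(A) tail. The strand of the reads is not given, so part of its counts could be reads of the opposite strand.

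The mRNAs varied far more between replicates with chlorquinaldol than without. The SD of log2 CPM over 3 libraries had a median over the 13 mRNAs of 0.12 in untreated cells, 0.52 at 20 μM and 0.74 at 50 μM, and of 0.10 with cGAMP. Over all 16628 genes it was 0.11, 0.15 and 0.16 at these doses and 0.12 with cGAMP. The spread was shared by the mRNAs. All 13 were highest in the first and lowest in the third 50 μM library, and 12 of 13 were highest in the third and lowest in the first 20 μM library, with MT-CO3 highest in the second. MT-RNR2 ran opposite to the mRNAs in both groups, whereas MT-RNR1 ran with them at 50 μM and was highest in the second and lowest in the third 20 μM library. Summed over the 13 mRNAs, the libraries had 12615, 18699 and 23820 CPM at 20 μM and 9653, 5678 and 3893 CPM at 50 μM. HMOX1, a heme oxygenase gene induced by metal and oxidative stress and looked at after its values were seen, was higher where the mRNAs were lower, at 287, 181 and 110 CPM in the same 20 μM libraries and 2246, 2942 and 3819 CPM in the 50 μM ones. MT2A, a metallothionein gene looked at in the same way, did not keep that order, at 3632, 3714 and 2763 CPM in the 20 μM libraries and 3756, 2872 and 1769 CPM in the 50 μM ones. The median distance of all nuclear genes from the untreated mean was 0.357, 0.335 and 0.306 log2 units at 20 μM and 0.461, 0.444 and 0.464 at 50 μM. The part of these differences between libraries in the spread of the mRNAs was not tested.

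cGAMP against untreated cells gave small differences. All 13 mRNAs were lower in all 3 cGAMP libraries than in any untreated one, but only MT-ATP8 was called (366, 437 and 466 CPM with cGAMP, against 640, 816 and 558 CPM in untreated cells; log2 −0.67 ± 0.21, adjusted p = 0.0264). Over all tested genes, 11.8% were called lower, and 25.4% had cGAMP libraries below all untreated ones. The median log2 change of the 13 mRNAs was −0.40, with a range from −0.67 to −0.19, against −0.053 over all tested genes. MT-CO1 had 9380, 10260 and 11156 CPM with cGAMP, against 13669, 13193 and 11902 CPM in untreated cells (log2 −0.33 ± 0.26, adjusted p = 0.397). MT-ND4, with the smallest difference of the mRNAs, had 4507, 5057 and 5057 CPM with cGAMP, against 5515, 5876 and 5237 CPM in untreated cells (log2 −0.19 ± 0.22, adjusted p = 0.587). MT-CO3 to MT-CO2 ratios were 1.39, 1.36 and 1.35 with cGAMP, within the 1.32 to 1.40 of untreated cells. The MT-ATP8 call was lost with DESeq2 (adjusted p = 0.110) and without the first or second untreated, the first or second cGAMP or the second 20 μM library (adjusted p = 0.0540, 0.144, 0.123, 0.0907 and 0.0564). In contrast, 11 mRNAs were called lower when only the cGAMP and untreated libraries were fitted, so that the spread of the chlorquinaldol libraries did not enter, with 14.2% of all genes called lower in that fit. MT-ND6, for example, was not called with all libraries (441, 400 and 473 CPM with cGAMP, against 621, 706 and 650 CPM in untreated cells; adjusted p = 0.238) and was called in the fit of these 2 groups (adjusted p = 9.20e-06).

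Neither rRNA was called with cGAMP. MT-RNR1 had 741, 780 and 814 CPM with cGAMP, against 721, 765 and 855 CPM in untreated cells (adjusted p = 0.994). MT-RNR2 had 8588, 9183 and 9755 CPM with cGAMP, against 10341, 10417 and 11343 CPM in untreated cells (log2 −0.22 ± 0.13, adjusted p = 0.248). The rRNA share of mtDNA counts was 22.0% ± 0.161 with cGAMP and 20.3% ± 2.14 in untreated cells (exact permutation p = 0.4, n = 3 each). The mtDNA share of all counts was 4.48% ± 0.170 with cGAMP and 5.86% ± 0.366 in untreated cells (exact permutation p = 0.1, the smallest possible).

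The 22 tRNAs were barely caught by these libraries. Over all 12 they had 58 counts, with at most 5 for a tRNA in a library, and each was listed at 0 FPKM. Of the 22, 14 had 0 counts throughout. A count of 0 in a single library still allows an expected count of up to 3 there, as a 95% upper limit. A count of 0 in all 12 allows less. Among the 8 with a count, 6 were light-strand and 2 heavy-strand. The sums over 3 libraries were 19 counts with cGAMP and, by dose, 27 in untreated cells, 7 at 20 μM and 5 at 50 μM. MT-TA, the alanine tRNA, held 11 of the untreated counts, 1 at 20 μM and 0 at 50 μM. It was singled out because it was the only tRNA called when no filter was used (adjusted p = 0.00972 at 50 μM by edgeR's quasi-likelihood test). That fit gave far smaller adjusted p-values for the tested members, as stated above, so this call carries little weight. Without read strand, counts on light-strand tRNAs cannot be told apart from heavy-strand precursors.

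Copies of mtDNA in the nuclear genome can share reads with the members. Of 404 such entries, 4 averaged at least 100 counts. MTND2P28, 98.2% identical to MT-ND2 over the aligned transcript, took 21.3% to 23.5% of the counts of that pair at 50 μM and 21.0% to 21.4% in untreated cells. Its log2 change at 50 μM was −2.65, and that of MT-ND2 was −2.73. MTATP6P1 (98.5% identical) had −2.64 and MT-ATP6 −2.69, MTCO1P12 (98.6%) had −3.29 and MT-CO1 −3.22, and MTND6P3 (86.7%) had −4.40 and MT-ND6 −4.56. All 4 copies were called lower at 50 μM, against 34.7% of all tested genes. Since reads can be shared, these calls may repeat those of the members. With the copies added to the members, all 15 calls at 50 μM remained.

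Nuclear genes for the same complexes had smaller changes. Of 77 nuclear OXPHOS subunit genes tested, 61 fell and 2 rose at 50 μM, against 34.7% and 32.2% of all tested genes, with a median log2 change of −0.45 and a range from −1.52 to 0.32. That lowest value lay above the smallest fall of the mtDNA mRNAs, MT-CO3 at −1.71. By complex, the nuclear medians were −0.44 for complex I, −0.36 for complex II, −0.45 for complex III, −0.39 for complex IV and −0.54 for complex V, and the mtDNA medians were −2.86, −2.60, −3.22 and −2.96 for complexes I, III, IV and V. The 3 largest falls in nuclear complex I were of the iron-sulfur or accessory subunits NDUFS6 (log2 −1.52 ± 0.11), NDUFS8 (−1.5 ± 0.11) and NDUFS1 (−1.30 ± 0.10). At 20 μM 48 of the 77 fell and 4 rose (median −0.28), against 28% and 27.1% of all tested genes. With cGAMP none fell and 6 rose (median 0.10), against 11.8% of all tested genes called lower and 11.6% called higher.

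**Figure D5:**
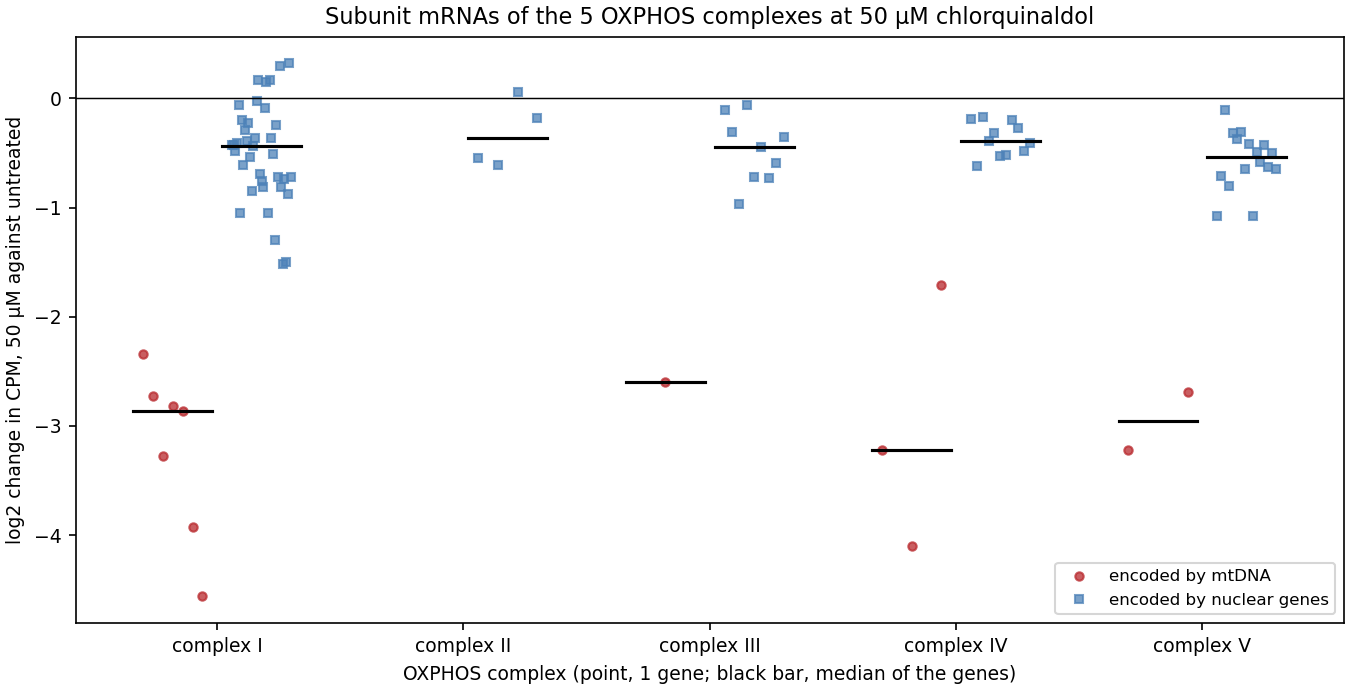
log2 change in CPM at 50 μM against untreated cells for subunit genes of the 5 OXPHOS complexes, encoded by mtDNA (circles, left) or by nuclear genes (squares, right), with a black bar at each median. The 13 mtDNA genes lie between −4.56 and −1.71 and the 77 nuclear genes between −1.52 and 0.32.

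Genes that make and process mtDNA transcripts were read from 2 lists, beside 34.7% of all tested genes called lower and 32.2% higher at 50 μM, 28% and 27.1% at 20 μM, and 11.8% and 11.6% with cGAMP. Of 19 genes for mitochondrial transcription and replication, 11 fell and 1 rose at 50 μM (median log2 −0.55), and 12 fell and 2 rose at 20 μM (median −0.34). RNASEH1, which removes RNA from RNA-DNA hybrids, fell by 1.87 ± 0.15 at 50 μM on the log2 scale, TWNK, the mtDNA helicase, by 1.68 ± 0.17, and MRPL12, a ribosomal protein that also binds the mitochondrial RNA polymerase, by 1.62 ± 0.13. Of 33 genes for RNA processing, modification and decay, 24 fell and 2 rose at 50 μM (median −0.55), and 23 fell and none rose at 20 μM (median −0.36). HSD17B10, a subunit of mitochondrial RNase P, which cuts the 5′ ends of tRNAs, fell by 1.68 ± 0.11 at 50 μM, ELAC2, which cuts their 3′ ends, by 1.35 ± 0.11, and DDX28, a helicase of mitochondrial ribosome assembly, by 1.32 ± 0.12. With cGAMP 2 of the 19 rose and 2 fell, about the share of all tested genes, and 4 of the 33 rose and 2 fell.

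RNAs that oligo(dT) beads should miss were read as a check on capture. Of 15 nuclear RNAs without a poly(A) tail, 3 were tested and none was called by edgeR at 50 μM or at 20 μM, and 2 rose with cGAMP. Of all tested genes, 34.7% were called lower and 32.2% higher at 50 μM, and 28% and 27.1% at 20 μM. With cGAMP 11.6% were called higher. With only 3 genes tested, these calls say little about capture. The sum over all 15 is also given. Their summed level was 42.8 to 103 CPM with cGAMP, 29.7 to 40.6 CPM in untreated cells, 26.4 to 47.8 CPM at 20 μM and 31.0 to 49.7 CPM at 50 μM. Of 33 histone genes, 7 were tested, of which 5 rose and 1 fell at 50 μM and at 20 μM, where 32.2% and 27.1% of all tested genes were called higher. Their summed level was 24.6 to 29.5 CPM with cGAMP, 21.7 to 22.5 CPM in untreated cells, 31.9 to 35.9 CPM at 20 μM and 32.9 to 35.7 CPM at 50 μM. The part of capture in the rise of the mt-rRNAs was not tested.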

How the data were processed

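The deposited tables hold estimated counts and FPKM per gene for 12 libraries, made by the authors with RSEM on GRCh38, per the submitters' processing notes. These notes also name DESeq2 1.26.0. Libraries came from oligo(dT)-selected RNA, per the labels' protocols. The RSEM version, annotation release and strand are not given in the sources used here. Estimated counts were not whole in 42.3% of cells above 0 and were rounded. Entries with an Ensembl ID that passed filterByExpr (minimum count 10), 16628 genes, were scaled by TMM and fitted as 1 model of 4 groups with edgeR 4.0.16 (quasi-likelihood F test, Benjamini-Hochberg, called below 0.05). CPM are TMM-scaled. SE is the log2 change over the square root of F. Changes are relative to the bulk of genes, and total RNA per cell cannot be seen. Depth was 17620929 to 19222607 counts per library.

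Shares and ratios used unscaled counts. Shares were compared by exact two-sided permutation tests. Positions, symbols of transcripts and sequences come from GENCODE 29, and identities from a global alignment (Biopython). Every mt-mRNA and mt-rRNA was to be named, tRNAs only where they passed the filter (MT-TA was added later), and for nuclear lists up to 3 called genes with the largest change at 50 μM. Members and lists were chosen with earlier results of these data known. The fit was repeated with DESeq2 1.42.0; upper-quartile, RLE or nuclear-only scaling; without the filter, or keeping genes with 5 CPM or more in 3 libraries; with the pair of groups alone; with replicate number as a block; by limma 3.58.1 on log2(FPKM + 1) and log2(FPKM + 0.1); with nuclear copies added; and without each library in turn.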

Additional observations from a re-analysis of the deposited data

How the results depend on the processing

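The number of mtDNA genes called at 50 μM was 15 with each library left out and 15 to 16 under the other settings. At 20 μM it was 9 to 15 with a library left out and 11 to 15 otherwise, and between the doses 13 to 15 in both. For cGAMP it was 1, with 0 to 1 when a library was left out, 0 with DESeq2, 0 with limma on log2(FPKM + 1) and 0 with limma on log2(FPKM + 0.1), and 11 with no filter and 11 with only the groups compared; fewer groups enter the latter fit's spread, and for the others the cause was not tested. Of the direction of single genes, only that of MT-RNR1 with cGAMP turned, at 0.00 in the reported fit and 0.01 with DESeq2 and with RLE factors, 0.04 with no filter and with only the groups compared, 0.05 with nuclear-only library sizes, and −0.06 to 0.07 (0.03, 0.04 and 0.05 among them) with a library left out, never called. Replicate numbers were checked for pairing. Deviations of same-numbered libraries correlated at −0.105 to 0.067, and a library matched its own number best in 12 of 36 pairings with another group, so the number is not taken as a pairing. With a replicate block the calls were 15 at 50 μM, 13 at 20 μM, 14 between the doses and 1 for cGAMP, as without it. limma on log2(FPKM + 0.1) moved the median of all genes at 50 μM to −0.16. All shares kept their direction, but from the deposited FPKM the differences at 50 μM and 20 μM were −9.60 and −6.21 percentage points for the mtDNA share, −10.2 and −6.75 for the mRNA share and 45.0 and 17.4 for the rRNA share of mtDNA, against −3.52 and −2.31, −4.08 and −2.78, and 54.6 and 27.0 from counts, which are not divided by gene length. Depth limits the tRNAs, with 58 counts in all.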
